A study of Mus musculus with 8 samples.

Results

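Transcripts of 28 genes of cholesterol synthesis and its control by SREBPs were examined in the distal ileum of Cftr null mice. The genes were chosen by symbol, as 21 genes of the route from acetyl-CoA to cholesterol, 5 regulators of the pathway and 2 proteins that handle sterols. The 21 are called enzymes here, though they include Ggps1, an enzyme off the sterol route, and 0610007P14Rik, thought to tether the enzymes. All 28 were found among the 41128 gene symbols of the deposited table, and each had a value of at least 1 in every library, from 2.52 to 182.

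RNA from whole tissue sections, taken less than 6 cm from the ileocecal valve, was sequenced from 8 mice with 1 library per mouse. The mice formed 4 couples of littermates on the FVB strain, each with a Cftr -/- animal (KO, the Cftrtm1Cam allele) and a sex-matched Cftr N/N control (WT). The untreated couples were numbered 1 (female), 2 (male) and 3 (female), which gave 3 WT and 3 KO libraries. The couple labelled ABX, female per its labels, drank water with ciprofloxacin at 0.3 g/L and metronidazole at 0.5 g/L, 2 antibacterial drugs (1 WT, 1 KO). Every mouse ate a low fiber diet and had been given an osmotic laxative until more than 4 days before sampling, and littermates were sampled within 20 min of each other. No age is stated in the labels. Cftr encodes an epithelial chloride and bicarbonate channel, and the null allele is carried by all cells of the body.

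Cells make cholesterol from acetyl-CoA. The mevalonate arm yields isoprene units, these are joined to farnesyl diphosphate and then to squalene, and squalene is closed to lanosterol, which a further series of enzymes converts to cholesterol. The transcription factor SREBP2, made from Srebf2, activates nearly all of these genes, while SREBP1, made from Srebf1, acts more on fatty acid synthesis. When sterols are plentiful, INSIG proteins hold the escort protein SCAP and the SREBPs in the endoplasmic reticulum, and when sterols run short SCAP carries the SREBPs to the Golgi, where they are cleaved and released. In the small intestine the pathway meets absorbed cholesterol and bile acids, and oxidized sterols act through the receptor LXR, which drives sterol exporters and Srebf1. The section held enterocytes and other cells of the gut wall: all 10 enterocyte markers, all 6 smooth muscle markers and 9 leukocyte markers passed the filter on low values. In whole tissue, more cells of a type and more RNA per cell cannot be told apart.

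SREBPs bind short promoter elements together with the factor NF-Y, which binds CCAAT. RefSeq promoter windows (build GRCm38.p6, 250 bases before to 50 bases after a start site) were found for 23 of the 28 genes, and none is shown for Fdps, Fdft1, Sqle, 0610007P14Rik or Stard4. The 5 windows printed here are of Acat2, Idi1 and Nsdhl, which passed 1 of the fits described below, and of Hmgcs1 and Insig1, which passed none. They show elements the genes do and do not share. Windows of Pmvk and Srebf1, which also passed, are not printed. Capitals mark CCAAT, the core of the sterol regulatory element searched as CACNCCAC, and the E-box CACGTG, each on either strand. Sequences run 5′ to 3′ in the direction of the gene.
Hmgcs1 (chr13:119690101-119690400, plus strand): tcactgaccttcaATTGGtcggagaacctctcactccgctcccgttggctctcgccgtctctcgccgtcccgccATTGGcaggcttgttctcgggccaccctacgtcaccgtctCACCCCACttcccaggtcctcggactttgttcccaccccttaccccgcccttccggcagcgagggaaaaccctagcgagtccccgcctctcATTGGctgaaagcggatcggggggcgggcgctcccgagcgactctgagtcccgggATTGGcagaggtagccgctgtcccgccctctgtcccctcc
Acat2 (chr17:12960676-12960975, minus strand): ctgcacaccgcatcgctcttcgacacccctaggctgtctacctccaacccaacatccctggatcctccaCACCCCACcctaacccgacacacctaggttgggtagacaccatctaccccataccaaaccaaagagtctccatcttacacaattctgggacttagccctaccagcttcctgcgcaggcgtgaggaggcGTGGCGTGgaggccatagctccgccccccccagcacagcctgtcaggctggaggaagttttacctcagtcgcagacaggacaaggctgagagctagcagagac
Idi1 (chr13:8885356-8885655, plus strand): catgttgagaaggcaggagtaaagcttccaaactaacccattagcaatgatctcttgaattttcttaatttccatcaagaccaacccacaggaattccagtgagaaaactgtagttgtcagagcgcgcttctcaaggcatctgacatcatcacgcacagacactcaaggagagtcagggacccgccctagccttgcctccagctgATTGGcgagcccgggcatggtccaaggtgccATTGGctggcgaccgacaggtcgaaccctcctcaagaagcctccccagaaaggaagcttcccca
Nsdhl (chrX:72918271-72918570, plus strand): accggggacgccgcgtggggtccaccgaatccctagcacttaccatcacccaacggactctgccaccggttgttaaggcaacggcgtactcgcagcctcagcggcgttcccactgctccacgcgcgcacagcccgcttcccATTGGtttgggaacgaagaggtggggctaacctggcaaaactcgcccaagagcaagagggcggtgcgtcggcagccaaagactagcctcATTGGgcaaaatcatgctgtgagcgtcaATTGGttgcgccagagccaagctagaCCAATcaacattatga
Insig1 (chr5:28071162-28071461, plus strand): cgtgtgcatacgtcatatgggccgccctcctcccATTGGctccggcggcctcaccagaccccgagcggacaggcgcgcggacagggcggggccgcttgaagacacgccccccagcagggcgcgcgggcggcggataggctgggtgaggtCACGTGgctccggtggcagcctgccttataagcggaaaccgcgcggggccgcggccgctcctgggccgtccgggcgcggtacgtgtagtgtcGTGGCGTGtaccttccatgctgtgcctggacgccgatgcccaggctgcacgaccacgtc

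The pentamer CCAAT or its complement ATTGG lay in at least 1 window of 21 of the 23 genes (91.3%), against 42.7% of the 8712 tested genes with a window and 41.1% of all 27025 genes with one. It was absent from the windows of Acat2 and Scap. The median GC content of the first listed window was 60.3% for the 23 genes and 60.7% for the tested genes. The core CACNCCAC was found in Acat2, Hmgcs1 and Insig1 (13% of the 23 genes, 7.44% of tested genes), and the longer form TCACNCCAC, which contains it, in Hmgcs1 (1.46% of tested genes). The E-box lay in 5 genes, Hsd17b7, Sc5d, Dhcr7, Scap and Insig1 (21.7%, against 11.8% of tested genes). Nsdhl and Hmgcs1 each had 4 CCAAT matches in their windows and Idi1 had 2. These are matches of letters and were not measured as binding.

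The deposited values have no stated unit and were taken as RPKM (reads scaled by gene length and library), so that levels of different genes can be compared within a library. Values shared between libraries show 3 normalization sets, couples 1 and 2, couple 3 and the antibiotic couple, so a ratio within a couple stays within 1 set and a level set across couples does not. The read depth behind them is unknown. Cftr was 9.94 to 12.4 in untreated WT and 2.65 to 3.74 in untreated KO libraries, and 13.8 in WT and 4.94 in KO of the antibiotic couple. Genes were tested with limma on log2(value + 1), a scale on which fold changes of low genes come out too small, and a call is a Benjamini-Hochberg adjusted p under 0.05 over all genes tested. The fit of 6 untreated libraries had no block, and a second fit took the couple as a block, since couples are littermates. Standard errors (SE) are those of the fit without the block unless said otherwise. Nothing in the labels says that the animals of a group came from separate litters beyond the couples, so p-values measure the spread between these mice.

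In untreated mice the enzymes of cholesterol synthesis were mostly higher in KO than in WT ileum. Of the 28 genes, 19 were higher in KO in each of the 3 couples (27.8% of 11911 tested genes were), and these included all 6 genes of the mevalonate arm, both prenyl diphosphate synthases and all 3 enzymes from farnesyl diphosphate to lanosterol. Another 3, the regulators Srebf1, Scap and Insig2, were lower in KO in each couple (32.4% of tested genes were). The median log2 difference, KO minus WT, was 0.37 over the 28 genes and 0.43 over the 21 enzymes, beside -0.02 over all genes tested. Without the block 0 of the 28 genes were called, where 1.07% of tested genes were called higher and 0.965% lower, and 8 had an unadjusted p under 0.05 (15.8% of tested genes). With the couple as a block 6 of the 28 rose, Acat2, Pmvk, Idi1, Fdps, Sqle and Nsdhl, and 1 fell, Srebf1, where 8.07% of tested genes were called higher and 9.52% lower.

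**Figure D1:**
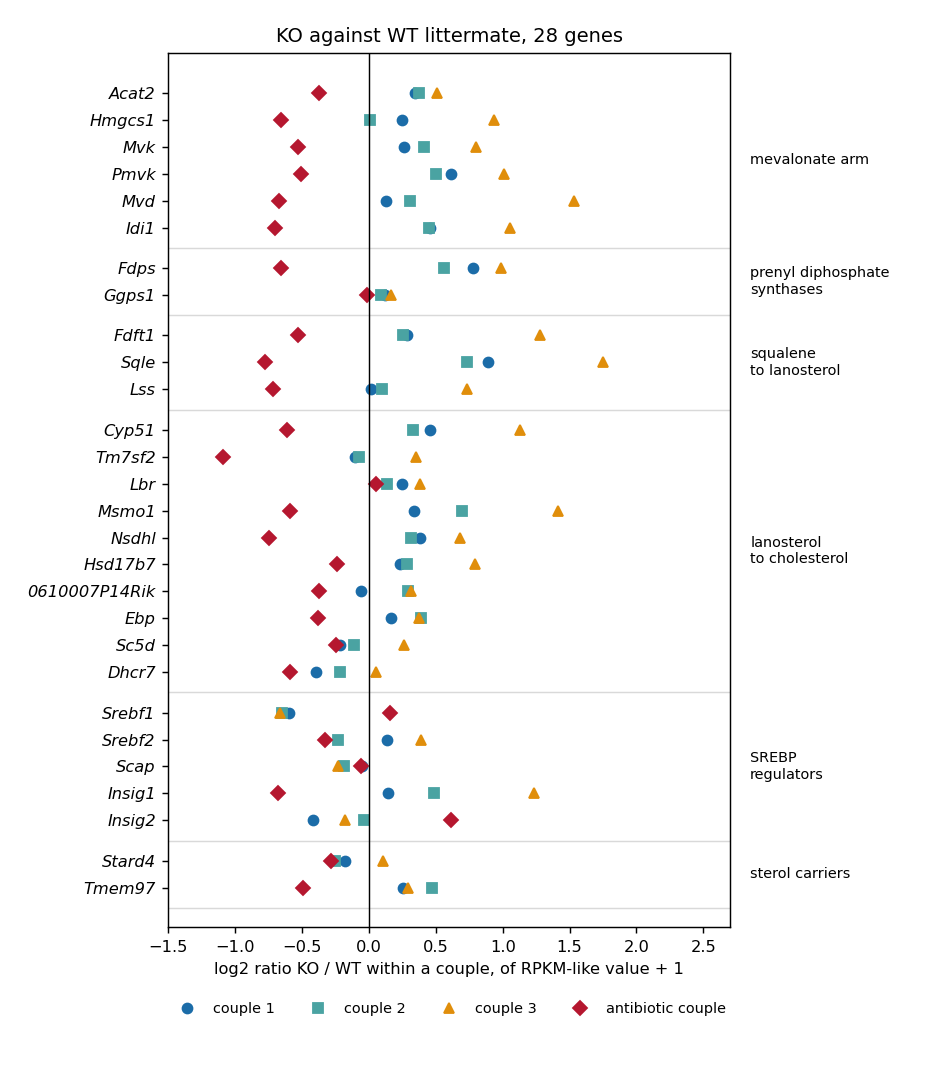
Each symbol is the log2 ratio of KO over WT (RPKM-like value + 1) in 1 couple, with the 28 genes on the vertical axis grouped by role. Symbols of the untreated couples lie mostly right of 0 for the enzymes, and the red diamonds of the antibiotic couple lie left of 0 for 25 of the 28 genes.

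Sqle, the squalene epoxidase that is a rate-limiting step of the sterol branch, had the largest difference among the 28 genes. It was 18.3, 20.9 and 16.2 in the WT and 34.8, 35.5 and 56.6 in the KO libraries of couples 1, 2 and 3. Every KO library lay above every WT library, and the KO mean was 2.29 times the WT mean. The means were 18.5 ± 2.39 and 42.3 ± 12.4 (SD, n = 3 each), and the log2 difference was 1.12 (SE 0.23, adjusted p by limma 0.0632 without the block and 0.0358 with it). With quantile normalization over the 6 libraries it passed without the block as well (adjusted p = 0.0371). Fdft1, the squalene synthase upstream of it, had values of 25.2, 29.5 and 25.2 in WT, against 30.9, 35.4 and 62.7 in KO, again without overlap (adjusted p = 0.337, and 0.128 with the block). Lss, which closes the ring to lanosterol, had values of 5.65, 7.48 and 4.51 in WT, against 5.71, 8.09 and 8.14 in KO. Its groups overlapped, and it differed by 0.01 and 0.10 on the log2 scale in couples 1 and 2 and by 0.73 in couple 3.

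Within the mevalonate arm, 3 of 6 genes rose with the block. Pmvk, phosphomevalonate kinase, had values of 16.7, 18.9 and 18.1 in WT, against 26.1, 27.1 and 37.4 in KO (log2 change 0.71, SE 0.19, adjusted p = 0.118, and 0.0295 with the block). Its WT libraries were close together and all KO libraries were higher. Idi1, the isomerase that interconverts the isoprene units, had values of 42.7, 31.6 and 40.2 in WT, against 59, 43.6 and 84.6 in KO (log2 change 0.65, SE 0.27, adjusted p = 0.294, and 0.0474 with the block). Acat2, a thiolase that joins acetyl-CoA units at the entry to the pathway, had values of 16.2, 13.5 and 17.6 in WT, against 20.9, 17.8 and 25.5 in KO (log2 change 0.41, SE 0.19, adjusted p = 0.349, and 0.0341 with the block). For both, the lowest KO library was just above the highest WT library.

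The other 3 mevalonate genes were higher in KO in each couple and passed neither fit. Mvd, the decarboxylase that ends the arm, varied most between couples, at 4.63, 18.4 and 8.07 in WT and 5.13, 23 and 25.2 in KO. Its ratio was small in couples 1 and 2 and large in couple 3, and the groups overlapped. Mvk, mevalonate kinase, averaged 9.9 ± 1.57 in WT, against 14.5 ± 3.59 in KO (SD, n = 3 each; adjusted p = 0.0601 with the block). Hmgcs1, the HMG-CoA synthase, had values of 87.9, 71.7 and 79.7 in WT, against 105, 72.2 and 154 in KO, so that the littermates of couple 2 were nearly equal. With Fdps it had the highest level among the 28 genes in untreated WT ileum.

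Fdps, which makes farnesyl diphosphate, rose with the block. It had values of 68.7, 75.5 and 91.4 in WT, against 118, 112 and 182 in KO, with no overlap, and the KO mean was 1.75 times the WT mean (log2 change 0.77, SE 0.25, adjusted p = 0.186, and 0.0213 with the block). Ggps1, which extends farnesyl to geranylgeranyl diphosphate for protein prenylation and lies off the sterol route, averaged 5.47 ± 0.912 in WT, against 6.05 ± 0.973 in KO (SD, n = 3 each). Its difference of 0.12 on the log2 scale (SE 0.17) was within the spread between libraries.

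The 10 genes that act between lanosterol and cholesterol did not differ alike, and 6 of them were higher in KO in each couple. Msmo1, the methyl sterol oxidase, had values of 21, 14.7 and 18.6 in WT, against 26.8, 24.4 and 51.4 in KO (log2 change 0.82, SE 0.30, adjusted p = 0.236, and 0.0648 with the block). Cyp51, the lanosterol demethylase, had values of 30.3, 30.6 and 32.4 in WT, against 41.8, 38.6 and 72.1 in KO (log2 change 0.64, SE 0.25, adjusted p = 0.279, and 0.0695 with the block). For both, all KO libraries lay above all WT libraries, and couple 3 had the highest KO value. Nsdhl, a dehydrogenase that works with MSMO1 in removing methyl groups, was the 1 gene of these 10 that rose with the block. It had values of 16.7, 18.5 and 19.4 in WT, against 22, 23.2 and 31.7 in KO (log2 change 0.46, SE 0.19, adjusted p = 0.286, and 0.0452 with the block).

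Hsd17b7, the ketoreductase of the same demethylation, and Lbr, a sterol reductase of the nuclear envelope, were also higher in KO without overlap, at 12.9 ± 2.08 against 9.25 ± 0.73 and 21.5 ± 0.958 against 17.8 ± 1.14 (SD, n = 3 each). Ebp, a sterol isomerase, was higher in each couple, at 31.2 ± 8.93 in KO and 24.6 ± 5.35 in WT. The erg28 homolog 0610007P14Rik, thought to tether these enzymes, was 13.6 ± 2.13 in KO and 11.8 ± 1.26 in WT. Dhcr7, the last reductase of the pathway, was 24.8 ± 7.92 in KO and 27.8 ± 6.18 in WT, and Sc5d, the lathosterol oxidase, was 35.4 ± 6.66 and 35.5 ± 0.387. Tm7sf2, a sterol reductase that shares its reaction with LBR, was 12.9 ± 4.61 and 12.1 ± 3.34. The signs of Dhcr7, Sc5d and Tm7sf2 each changed when single libraries were left out, and none of the 3 was called.

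**Figure D2:**
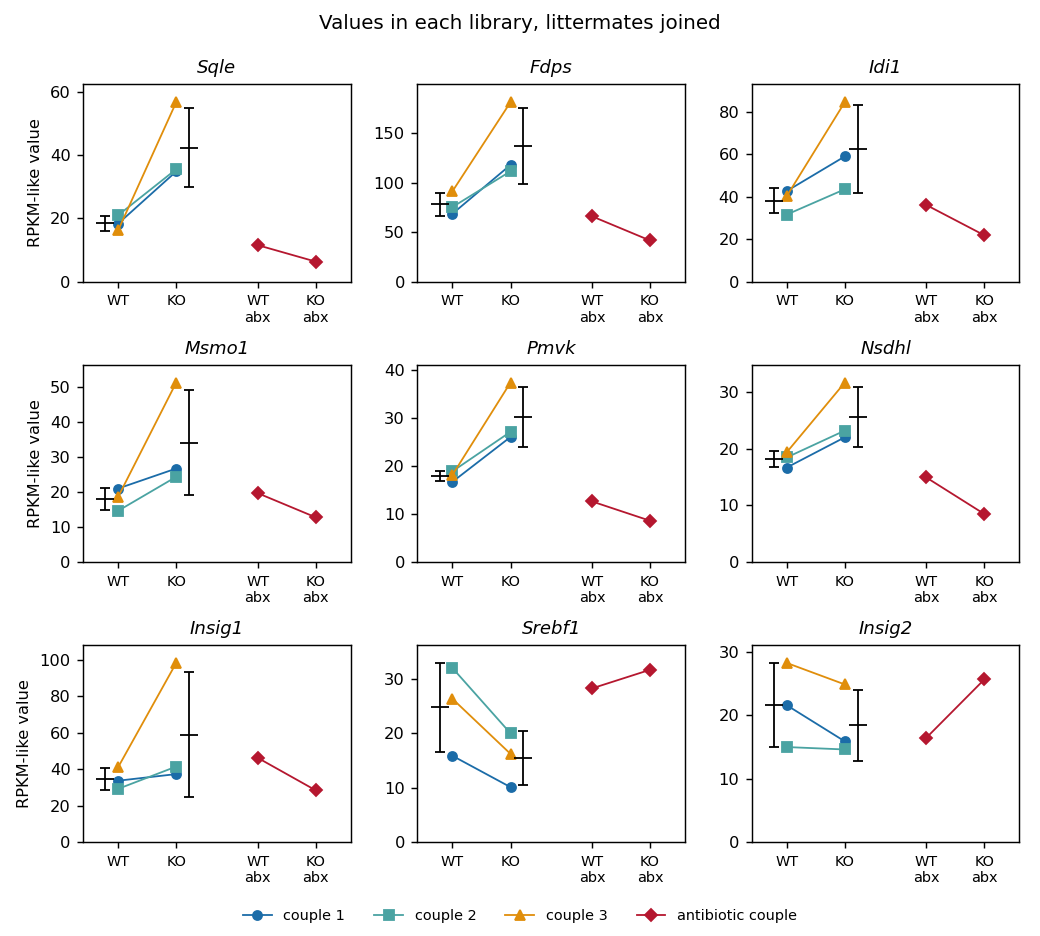
RPKM-like values of 9 genes in each library, with lines joining littermates, colours giving the couple, and black bars the mean and SD of the 3 untreated libraries of a genotype. For the 6 enzymes each untreated line goes up from WT to KO and the antibiotic line goes down, while Srebf1 and Insig2 go the other way.

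Among the regulators, Srebf1 and Insig1 differed in opposite directions. Srebf1 had values of 15.9, 32 and 26.3 in WT, against 10.1, 20 and 16.2 in KO, lower by a similar ratio in each couple (log2 -0.60, -0.65 and -0.67). Levels varied more between couples than between littermates, and the groups overlapped. The log2 change was -0.64, with adjusted p = 0.389 without the block (SE 0.32) and 0.0151 with it (SE 0.07), so Srebf1 fell in the blocked fit. Srebf2 had values of 32.1, 49.7 and 32.5 in WT, against 35.3, 42.2 and 42.9 in KO, lower in KO in couple 2 and higher in the other couples (log2 change 0.10, SE 0.22). Scap had values of 8.49, 12.7 and 9.8 in WT, against 8.13, 11 and 8.19 in KO (log2 change -0.16, SE 0.20).

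Insig1, a feedback inhibitor that is itself an SREBP target, had values of 33.8, 29.3 and 41.1 in WT, against 37.4, 41.5 and 98.3 in KO. The difference was small in couple 1 and large in couple 3, and the log2 change of 0.62 (SE 0.37) had an adjusted p of 0.465, and 0.112 with the block. Its paralog Insig2, which is not driven by SREBPs in the same way, had values of 21.6, 15 and 28.2 in WT, against 15.9, 14.6 and 24.9 in KO (log2 change -0.21, SE 0.28). Of the proteins that handle sterols, Tmem97, an endoplasmic reticulum protein known as the sigma-2 receptor, averaged 29.1 ± 2.79 in WT, against 37.1 ± 4.88 in KO (SD, n = 3 each; adjusted p = 0.053 with the block). Stard4, a cytosolic sterol carrier, was 44.1 ± 9.19 and 41.4 ± 11.8.

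Couple 3 had the largest KO over WT ratio for 23 of the 28 genes, and the median log2 ratios of couples 1, 2 and 3 were 0.20, 0.29 and 0.60 (-0.02, 0.00 and -0.03 over all genes tested). KO was higher for 20, 20 and 25 of the 28 genes in couples 1, 2 and 3, where 47.5%, 50% and 45.5% of tested genes were. Over the 28 genes the ratios of couples 1 and 2 had a Pearson r of 0.83, those of couples 1 and 3 of 0.77 and those of couples 2 and 3 of 0.79, beside 0.61, 0.64 and 0.59 over all 11520 genes tested in all 8 libraries. Couples 1 and 2 share a normalization set, and the genes of a pathway are not independent. The ranges of untreated KO and WT libraries did not overlap for 11 of the 28 genes, with KO above WT for all 11 (10.3% of tested genes), and 0 had KO below WT (12.1%). With the block and without couple 3, Sqle was called (adjusted p = 0.0389; 265 genes higher and 290 lower of 11911 in all). Without couple 2 Fdps was called (adjusted p = 0.044; 215 and 231 genes in all). Without couple 1 none of the 28 was (104 and 94 genes in all), with adjusted p of 0.0586 for Srebf1 and 0.0753 for Fdps.

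**Figure D3:**
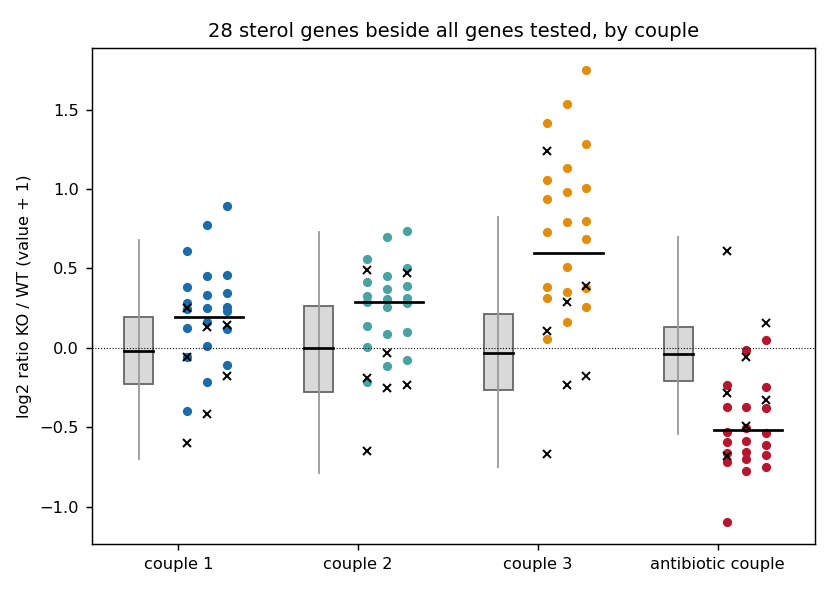
For each couple, the grey box shows the quartiles and median of the log2 ratio KO over WT over 11520 genes and its line the 5th to 95th percentile, beside the 21 enzymes (dots), the 7 other genes (crosses) and the median of all 28 (black line). That median is 0.20, 0.29 and 0.60 in the untreated couples and -0.52 in the antibiotic couple.

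In the couple given antibiotics the order was turned. KO was lower than WT for 25 of the 28 genes (56.6% of 11520 tested genes), with a median log2 ratio of -0.52 beside -0.04 for all genes tested. The 21 enzymes had a median of -0.59, and 20 of them were lower. Of the 28 genes, 1 was past 2-fold lower (0.964% of tested genes) and 0 past 2-fold higher (3.29%). There is 1 library per genotype here, so the ratios have no replicate and were not tested on their own. In the WT library of this couple 423 genes of the whole table carried faulty values, and none of the 28 genes was among them. Such genes were left out of the tested genes here.

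Sqle was 11.5 in WT and 6.33 in KO of the antibiotic couple, Fdps 66.2 and 41.7, and Idi1 36.2 and 21.9. Nsdhl went from 14.9 in WT to 8.48 in KO, Pmvk from 12.6 to 8.6, Cyp51 from 24.6 to 15.8 and Msmo1 from 19.7 to 12.8. Each of these KO values was 0.55 to 0.68 times that of the littermate. Hmgcs1 was 75.5 and 47.3, Mvd 4.62 and 2.52, and Acat2 14.2 and 10.7, the last 0.76 times the littermate. Tm7sf2, which hardly differed between untreated littermates, had the lowest ratio, 4.57 in KO against 10.9 in WT (0.42 times). Dhcr7 was 12.2 against 18.9, whereas Lbr (14.3 and 13.8) and Ggps1 (5.58 and 5.66) were nearly equal.

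Of the 3 regulators that were lower in each untreated KO library than in its littermate, Insig2 and Srebf1 were higher here and Scap was not. Insig2 was 16.4 in WT and 25.6 in KO (log2 ratio 0.61) and Srebf1 28.2 and 31.6 (0.16), while Insig1 was 46.3 and 28.5 (-0.68). Srebf2 was 33.1 and 26.2, and Scap 8.42 and 8.05. Of the 28 genes, 18 were higher in KO in all 3 untreated couples and lower in KO in the antibiotic couple (13.6% of tested genes), and Srebf1 and Insig2 showed the opposite (11.4%). Over the 28 genes, the ratios of the antibiotic couple had a Pearson r of -0.50, -0.46 and -0.66 with those of couples 1, 2 and 3, beside 0.31, 0.14 and 0.36 over all tested genes. Over all 28 genes, a larger KO over WT ratio in untreated mice thus tended to go with a lower one under antibiotics. The 28 include Srebf1 and Insig2, which went against the enzymes in both settings, and the correlation was not computed over the enzymes alone. Tm7sf2, Sc5d and Dhcr7, lower in KO in couples 1 and 2, were lower in KO under antibiotics too.

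The difference in genotype effect was tested as the KO minus WT difference with antibiotics less that without. With 1 antibiotic library per genotype, its p-values rest on the spread of the untreated libraries, and the antibiotic libraries are assumed to vary like them. Its median was -0.91 over the 28 genes and 0.00 over all tested genes, and it was below 0 for 25 of the 28 (50.1% of tested genes). Sqle had -1.90, Fdps -1.43, Msmo1 -1.40, Idi1 -1.36 and Insig1 -1.30, and Insig2 and Srebf1 had 0.82 and 0.80. None of the 28 genes was called by limma, and no gene of the table was (0% in either direction, with or without the block). At an unadjusted p under 0.05 there were 10 of the 28 (4.19% of tested genes), and 18 with the block (16.1%), with the lowest adjusted p at 0.128 for Fdps. With faulty rows kept, 44 and 30 genes of the table were called higher and lower and again 0 of the 28.

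Levels with and without antibiotics cross normalization sets, and treatment coincides with 1 couple, its litter and its set, which cannot be told apart. On average over both genotypes the 28 genes had a median log2 difference of -0.59, antibiotics minus none, where all tested genes had -0.14, and 25 of the 28 were below 0 (67.8% of tested genes). With libraries centred on their median the values were -0.40 and 0.04, and with quantile normalization over 8 libraries -0.47 and 0.00. None of the 28 was called in this fit (0.13% of tested genes were called higher and 0.026% lower), and 16 had an unadjusted p under 0.05 (19.4% of tested genes). The KO library carried most of it: with it left out, the median of the 28 was -0.16, near the -0.14 of all tested genes. With the WT library left out it was -0.99, where all tested genes had -0.13.

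For 24 of the 28 genes the antibiotic KO library was below the 3 untreated KO libraries (40.6% of tested genes), and for 24 it was below all 6 untreated libraries (28.6%), and the exceptions to the latter were Ggps1, Srebf1, Insig2 and Stard4. The count was 20 with centred libraries (13.3% of tested genes) and 23 with quantile normalization (17.5%). The antibiotic WT library was below all 6 for 9 of the 28 (27.6% of tested genes), and it lay within the range of the 3 untreated WT libraries for 14 (49.9%) and below that range for 12 (39.7%). With centred libraries the WT library was below all 6 for 5 genes (12.5% of tested genes) and below the WT range for 5 (17%), and with quantile normalization for 7 (15.6%) and 8 (21.6%). Sqle in antibiotic KO was 0.15 times the untreated KO mean, Pmvk 0.28, Fdps 0.30 and Cyp51 0.31 times. In antibiotic WT, Sqle was 0.62, Pmvk 0.71, Fdps 0.84 and Cyp51 0.79 times the untreated WT mean. Srebf1 went the other way, at 2.05 times the untreated mean in KO and 1.14 times in WT. With the WT library left out, Sqle (log2 change -2.53, adjusted p = 0.0164), Pmvk (-1.68, 0.0337) and Nsdhl (-1.47, 0.046) were called lower by limma, beside 77 genes higher and 84 lower of 11520 in all. In that fit the lone KO library is assumed to vary like the untreated ones.

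Other genes of sterol and lipid control were taken from 4 lists. Of 10 LXR receptors and targets in untreated mice, 3 fell without the block (0.965% of tested genes did) and 5 with it (9.52%), 0 rose, and the median was -0.54. The receptor genes themselves, Nr1h2 and Nr1h3, were not among those called (log2 -0.03 and -0.21). Abca1, which exports cholesterol to lipoproteins, had values of 14.1, 11.3 and 7.79 in WT, against 4.01, 3.27 and 2.87 in KO (log2 change -1.44, SE 0.22, adjusted p = 0.0248). Abcg8, a chain of the exporter that returns sterols to the gut lumen, had a change of -1.40 (adjusted p = 0.0166), and Mylip, a ubiquitin ligase for lipoprotein receptors, of -1.16 (0.0776, and 0.0339 with the block). In the antibiotic couple Abca1 was 16.1 in WT and 15.6 in KO, Abcg8 46.8 and 67.1, and Mylip 8.26 and 10.3, so that the list's median was 0.07.

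Of 18 tested fatty acid synthesis genes that SREBP1 drives, 0 were called without the block and 1 rose with it (8.07% of tested genes did), the elongase Elovl6 (log2 change 0.47, adjusted p = 0.188, and 0.0405 with the block). Their median was -0.13, and it was 0.04, -0.33 and 0.08 in couples 1, 2 and 3. In the antibiotic couple 16 of the 18 were lower in KO (56.6% of tested genes were), with a median of -0.72. Of 14 tested genes of SREBP processing and sterol-regulated degradation, 1 fell with the block (9.52% of tested genes did), Erlin2, a membrane protein that helps to hold SREBPs in place (-0.37, adjusted p = 0.305, and 0.0351 with the block), and the median was -0.09. Of 16 genes of the branches after farnesyl diphosphate (prenyl transferases, dolichol and ubiquinone synthesis), 1 rose with the block (8.07% of tested genes did), Rabggtb (0.34, adjusted p = 0.597, and 0.0495 with the block), with a median of 0.09.

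**Figure D4:**
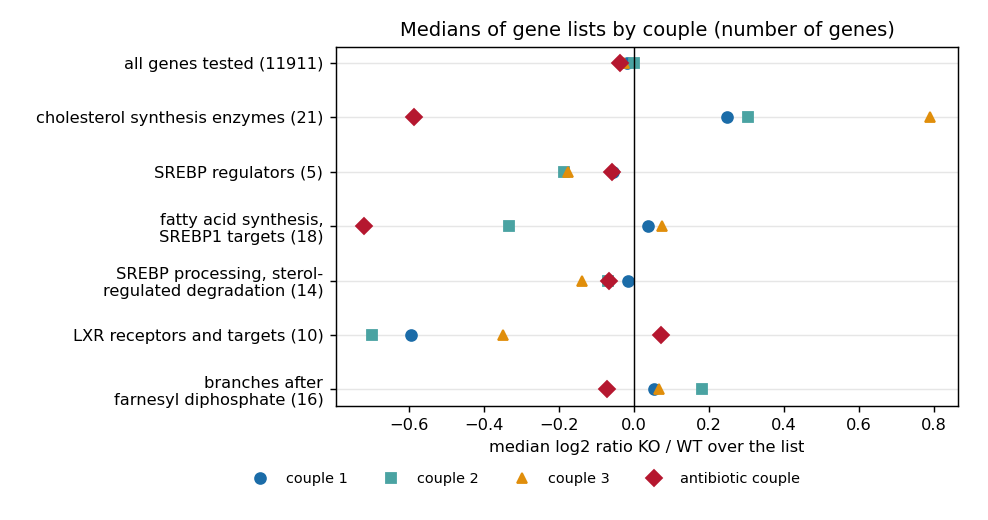
Median log2 ratio KO over WT of each gene list (vertical axis, number of tested genes in parentheses) in the 4 couples. The enzymes of cholesterol synthesis lie at 0.25, 0.31 and 0.79 in the untreated couples and at -0.59 in the antibiotic couple, and the LXR list at -0.60, -0.70 and -0.35 and at 0.07.

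Markers of cell types differed by genotype too, and their part in the differences was not tested. Of 12 crypt and cycling cell markers, 7 rose with the block (0 without), where 8.07% of tested genes did, with medians of 0.44, 0.37 and 0.44 in couples 1, 2 and 3 and -0.15 in the antibiotic couple. The 7 were genes of the cell cycle (Top2a, Ccnb1, Ccna2, Rrm2, Mcm5, Cdk1 and Birc5), while the stem cell markers Lgr5, Olfm4 and Ascl2 had log2 differences of -0.47, -0.18 and -0.10 and were not called. The summed level of all 12 was 242 to 318 in untreated WT and 274 to 346 in untreated KO. It was 247 and 246 in WT and KO of the antibiotic couple, with none at 0. Olfm4 alone was 138 to 187 in untreated WT, 133 to 167 in untreated KO, and 155 and 151 with antibiotics. The sum thus follows Olfm4 more than the cell cycle genes. In the antibiotic couple 9 of the 12 were lower in KO and 3 higher (56.6% of tested genes were lower). Of 10 enterocyte markers, 6 fell with the block (9.52% of tested genes did), the summed level was 14760 to 21882 in untreated WT and 5294 to 11486 in untreated KO, and 21815 (WT) and 21039 (KO) in the antibiotic couple. Within those last sums the members differed: Fabp2 was 11280 in both libraries and Apoa4 2774 in WT and 6822 in KO. Fabp6, which binds bile acids inside ileal enterocytes, was 4955 in WT and 458 in KO of the antibiotic couple. It was lower in KO in untreated couples 1, 2 and 3 as well, at 5128, 6151 and 6881 in WT and 779, 1059 and 2273 in KO. The WT and KO libraries of the antibiotic couple share 12480 values above 0, so the equal Fabp2 value can come from their normalization. Fabp2 is the largest part of both sums, so their likeness is no measure of equal enterocyte content. Slc10a2, the ileal bile acid transporter, was 67.1 in WT and 7.53 in KO of the antibiotic couple. It was higher in KO in each untreated couple (log2 1.25, 0.18 and 1.71, not called). Leukocyte markers summed to 208 to 328 in untreated WT, 409 to 814 in untreated KO, and 127 and 520 with antibiotics, so their sum was higher in KO in each of the 4 couples, and 2 of 9 rose without the block and 5 with it. With the block, 2 of 6 Paneth cell markers rose, 1 of 7 goblet cell markers fell and 0 of 6 smooth muscle markers were called. The 6 markers of mesenteric adipocytes (5 tested, 1 fell with the block) summed to 98.7, 180 and 112 in WT and 66.8, 85.1 and 210 in KO of couples 1, 2 and 3, and to 207 and 141 with antibiotics. Their sum was thus lower in KO in all couples but couple 3, the couple with the largest ratio for most of the 28 genes. The markers differed within that couple, where 3 of the 5 tested were higher in KO (45.5% of tested genes were). Fabp4 was 36.3 in WT and 135 in KO of couple 3, but Cidec was 32.1 and 28.2 and Lipe 38.7 and 26.1. Without couple 3 the median log2 change of the 28 genes was 0.24. Lep was listed at 0 in both antibiotic libraries, and the other adipocyte markers were above 0 in all libraries.

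Exons of some genes overlap those of neighbours, and the counting is not stated to use strand. On opposite strands, Fdft1 shares 774 exonic bases with Ctsb, Ggps1 257 with Arid4b and Cyp51 166 with Akap9, while Tm7sf2 shares 532 with Vps51 and Fdps 1124 with the model Gm43738 on the same strand (GENCODE M21, GRCm38). Reads there could belong to either gene. Of the genes called with the block, Idi1 also shares 323 exonic bases with the model Gm48574 and Srebf1 109 with Rai1, both on the opposite strand. Of the genes that rose with the block, Pmvk lies on chromosome 3 (89454541 to 89469013, plus strand), Fdps on chromosome 3 (89093588 to 89101959, minus strand), Idi1 on chromosome 13 (8885501 to 8892451, plus strand), Sqle on chromosome 15 (59315077 to 59331192, plus strand), Acat2 on chromosome 17 (12942890 to 12960747, minus strand) and Nsdhl on the X chromosome (72918557 to 72958514, plus strand). Srebf1 lies on chromosome 11 (60199089 to 60222581, minus strand). Its whole-gene value does not separate the transcripts that begin at its different start sites.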

How the data were processed

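Per the series' design text, polyadenylated RNA was sequenced on a HiSeq 2000 or an Ion Proton instrument, and the authors used CLC genomic workbench 7.5 for mapping against release 76 of the GRCm38 annotation. Which instrument read which library, how reads were counted and how values were normalized is not stated in the labels. The deposited values were taken as RPKM, since they are not whole, library sums were 346794 to 397082, and log2 values fell with log2 exon length (slopes -0.52 to -0.28 over 10873 protein-coding genes). Each pair of the 4 libraries of couples 1 and 2 shared 20883 values above 0, nearly all of them, as quantile normalization leaves them, and couple 3 and the antibiotic couple shared values only within the couple. Libraries listed 11912 to 20896 genes above 0, and read depth is unknown.

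Values were used as log2(value + 1). A gene was kept where 3 or more libraries had a value of 1 or more. On 2 gene sets limma 3.58.1 was run with its trend option under R 4.3.3. These were 11911 genes in untreated mice, and 11520 in fits with the antibiotic couple, which left out genes with faulty values in its WT column. Over the whole table, before the filter on low values, 423 genes had such values (376 sharing a value with another gene, 45 at 0 while the KO had at least 1, and 2 far below all others). The rule for faulty values was written after the values were seen. The untreated fit had no block, the antibiotics fit had genotype as a term, and the difference of differences had 1 mean per group. The couple numbers pair the samples: the deviations of littermates from the means of their groups were correlated (0.62, 0.63 and 0.53 in couples 1, 2 and 3), and the libraries of a couple also lie in 1 normalization set. Alternatives were another pseudocount, no filter, centred or quantile-normalized libraries, no trend, the block, and leaving out couples or libraries. Code was tested on simulated data. The 28 genes, the lists and the tests were chosen with earlier results of these data known. Genes were described in full if they passed the untreated fit with or without the block or the antibiotics fit, were among the 5 regulators, or had 1 of the 8 largest changes without regard to sign. In each further list at most the 3 largest changes per direction were named, from genes that passed with or without the block.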

Additional observations from a re-analysis of the deposited data

Results flagged for a closer look

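For 20 of the 28 genes the KO over WT difference had 1 sign in all 3 untreated couples and the opposite sign in the antibiotic couple. KO was higher without antibiotics and lower with them for 18 (13.6% of tested genes), and the reverse held for 2 (11.4%). This opposition of signs has no test of its own, and limma called none of the 20 for the difference in genotype effect (lowest adjusted p = 0.128, with the block). The log2 ratios in the antibiotic couple, with KO lower, were Acat2 -0.37, Hmgcs1 -0.66, Mvk -0.53, Pmvk -0.51, Mvd -0.68 and Idi1 -0.70 in the mevalonate arm. After it they were Fdps -0.65, Ggps1 -0.0162, Fdft1 -0.53, Sqle -0.78 and Lss -0.72. Between lanosterol and cholesterol they were Cyp51 -0.61, Msmo1 -0.59, Nsdhl -0.75, Hsd17b7 -0.24 and Ebp -0.38. Insig1 had -0.68 and Tmem97 -0.49. In the other direction, with KO higher under antibiotics and lower without, Srebf1 had 0.16 and Insig2 0.61.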

How the results depend on the processing

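The couples are pairs of littermates, and taking them as a replicate block raised the calls among the 28 genes from 0 to 6 higher and 1 lower, and those over all genes from 128 and 115 to 961 and 1134. With the block and centred libraries the counts were again 6 and 1 (961 and 1130 over all genes), with quantile normalization 6 and 1 (943 and 1085), and with a pseudocount of 0.1 they were 6 and 1 (976 and 1133), in fits chosen after seeing the data, and the 7 genes called were the same. With the block and without couple 1, 2 or 3, 0, 1 and 1 of the 28 were called higher and 0 lower (215 and 231 genes of the table without couple 2, and 265 and 290 without couple 3). The block changed no call of the difference in genotype effect. Without the block, quantile normalization called 1 of the 28, and leaving out any 1 couple called 0 genes of the table. No filter on low values left 7 and 4 genes called. Leaving out 1 untreated library gave 38 to 71 genes higher and 25 to 68 lower, 0 of the 28 called, and a median of the 28 of 0.22 to 0.44.

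Signs turned in genes near 0. In untreated mice Sc5d had 0.074 without couple 1 and 0.023 without couple 2, and Tm7sf2 -0.091 and Srebf2 -0.049 without couple 3, with or without the block. Over fits without 1 library Sc5d ranged from -0.17 to 0.068, Dhcr7 from -0.37 to 0.10, Tm7sf2 from -0.16 to 0.36, Stard4 from -0.28 to 0.14 and Srebf2 from -0.0078 to 0.30. For antibiotics against none, Ggps1 had 0.17 with centred and with quantile-normalized libraries, and Sc5d 0.040 with centred ones. Without 1 library, either antibiotic one included, Ggps1 ranged from -0.090 to 0.049, Msmo1 from -1.27 to 0.13, Insig1 from -0.89 to 0.42 and Insig2 from -0.33 to 0.49. Scap ranged from -0.044 to 0.23 for the difference in genotype effect.

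For antibiotics against none, 15 and 3 genes of the table were called higher and lower. Without 1 library the counts were 1 to 77 and 0 to 84, with 0 to 3 of the 28 called lower and a median of the 28 of -0.99 to -0.16. A pseudocount of 0.1 gave 8 lower, no filter 0 and 0, centring 1 lower, quantile normalization 1 lower, and keeping faulty rows 5 lower. With those rows kept, 44 and 30 genes were called for the difference in genotype effect, in place of 0 and 0. Leaving out either antibiotic library leaves no difference in genotype effect to fit, so those fits were not run. The read depth is unknown, so no limit from counting can be given.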

Other observations

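Within the fatty acid synthesis list, 5 of 18 tested genes were past 2-fold lower in KO than in WT in the antibiotic couple (0.964% of tested genes), and 4 of them are named here, chosen after their values were seen. Fasn, the fatty acid synthase, was 43.4 in WT and 11.6 in KO, and the desaturases Scd1 and Scd2 were 266 and 61.8, and 142 and 32.7. Thrsp, which promotes lipogenesis, was 23.5 and 4. In untreated couples 1, 2 and 3 the log2 ratios of KO over WT were 0.06, -1.32 and 0.58 for Fasn and 0.54, -1.45 and 1.04 for Thrsp. For Scd1 they were -0.66, -2.69 and 0.73, and for Scd2 -0.79, -0.43 and 0.10. For each of the 4 genes couple 3 had the highest ratio. The adipocyte markers did not go alike, and 3 of the 5 tested were higher in KO in couple 3 (45.5% of tested genes were). Adipoq had -1.10, -1.77 and 1.90 in couples 1, 2 and 3 and -1.54 in the antibiotic couple. Lipe had -0.46, -0.49 and -0.55 in couples 1, 2 and 3 and 0.17 in the antibiotic couple. Cidec had -0.24, -0.56 and -0.18, and -0.18 in the antibiotic couple. The part of adipocytes in these values was not tested. The medians of the cholesterol enzymes were 0.25, 0.31 and 0.79 in couples 1, 2 and 3, also highest in couple 3, and -0.59 in the antibiotic couple.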
